A study of Mus musculus with 6 samples.

Results

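Cells that live on oxidative metabolism remove the reactive oxygen species it produces with a small set of enzymes and metal-binding proteins, and 10 of the 27998 genes counted in these libraries were followed here for that reason. They were taken by name: the superoxide dismutases Sod1 and Sod2, catalase (Cat), the glutathione peroxidases Gpx1, Gpx3 and Gpx4, the peroxiredoxins Prdx3 and Prdx5, and the metallothioneins Mt1 and Mt2. The cells were left-ventricular cardiomyocytes (CMs) of C57BL/6J mice, fixed, stained for the myosin MYH1 and for DNA, sorted by DNA content as diploid (2n) or tetraploid (4n), and sequenced by droplet scRNA-seq at embryonic day 16.5 (E16.5) and on postnatal days 1 (P1) and 5 (P5). Each of the 6 groups was 1 library made from 3 pooled sorts, so age and ploidy could be compared only between single libraries. The paper describes each sort as cells of 1 litter, gated for DNA content, so the 2n and 4n CMs of an age shared litters. For the E16.5-4n library the age field of the labels reads day 16.6 while its title reads 16.5. No transgene or treatment was used, 4n CMs include cells that have replicated their DNA as well as cells that stay tetraploid or binucleate, and the sex of the animals was not stated.

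Superoxide leaking from the respiratory chain is turned into hydrogen peroxide by Sod2 in the mitochondrial matrix and by Sod1 in the cytosol and the space between the mitochondrial membranes. Hydrogen peroxide is then removed by catalase, by glutathione peroxidases and by peroxiredoxins, while metallothioneins are small cysteine-rich proteins that bind zinc and copper and whose genes respond to metals and glucocorticoids. Around birth the heart meets a higher oxygen tension and turns from glucose to fatty acids as its main fuel, which is the setting in which these genes are usually studied in CMs.

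Of 31156 cells, 30733 had at least 1 UMI (a molecule counted once by its tag) of each of Tnni3, Tnnt2, Tnnc1 and Actc1 and were kept as CMs, 3654 to 7340 per library with 13070343 to 19665830 UMIs in all and a median of 1831 to 4658 UMIs per CM. Levels are UMIs per 1000000 UMIs (CPM) after adding up all CMs of a library, and because no group was repeated no test was made: intervals are exact 95% intervals of the counts, which cover counting error only. All 10 genes had at least 100 UMIs in every library, the least being 346. Markers of other cells differed between the libraries, with the 6 fibroblast markers summing to 126 to 886 CPM and CMs holding UMIs of 2 or more markers of other cell types making up 2.83% (2n) and 24.5% (4n) of the CMs before birth, 3.47% and 38.1% on P1, and 9.45% and 17.2% on P5. CMs with at least 3 UMIs of cycling markers made up 21.2%, 56.2%, 2.87%, 12.6%, 12.4% and 44.1% in the same order. Both classes were cut on all UMIs of a CM without thinning, so their shares also depend on depth. The median UMIs per CM were 2240 (2n) and 2185 (4n) before birth, 1831 and 3187 on P1, and 3759 and 4658 on P5. Among the cell barcodes 499, carried by 1003 cells, occurred in more than 1 library. The 6 erythroid genes, whose RNA is not made by CMs, reached 1649 to 10332 CPM in the CMs. No cell type known to lack these 10 genes was present, so a share of cells with a UMI has no background value to be set against.

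Gpx3, which encodes a glutathione peroxidase made for secretion, and Mt2 had the widest ranges over the 6 libraries, 5.15- and 4.08-fold, and the changes came at different ages. Gpx3 was lower at P1 than at E16.5 and lower again at P5. On the CPM scale Mt1 and Mt2 differed less between E16.5 and P1 and were lower at P5. Sod1 and Cat were higher in both ploidies after birth than before (by log2 ratios of 0.60 to 1.17), Sod2 and Prdx5 were also higher, and Gpx1, Gpx4 and Prdx3 differed by 1.28-, 1.20- and 1.28-fold between their highest and lowest library.

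From E16.5 to P1, 2 of the 10 genes passed a fold of 2 in 2n-CMs, Sod1 upward and Gpx3 downward, where 14.1% of the 9391 genes with at least 100 UMIs over both libraries did so (1.98% higher and 12.1% lower). In 4n-CMs 1 of 10 passed it over the same interval, Cat upward, against 14.5% of 9958 genes (2.88% higher and 11.6% lower). From P1 to P5, 2 of 10 passed it in 2n-CMs, Mt1 and Mt2, both downward, against 5.01% of 9230 genes (3.02% higher and 1.98% lower). In 4n-CMs it was 1 of 10, Mt2, against 8.24% of 9764 genes (2.40% higher and 5.85% lower). Over the whole span from E16.5 to P5 it was 3 of 10 in 2n-CMs, Gpx3, Mt1 and Mt2, all downward, against 19.9% of 9505 genes (3.03% higher and 16.8% lower), and 2 of 10 in 4n-CMs, Gpx3 and Mt2, both downward, against 23.4% of 9600 genes (2.48% higher and 21.0% lower). These counts of 1 to 3 genes are too small, and mostly too close to the share over all genes, to say anything of the 10 as a group. The comparisons share libraries, so the counts do not add up as separate observations.

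The median gene was itself lower with age on the CPM scale, by a log2 difference of −0.34 (2n) and −0.30 (4n) at P1 against E16.5 and of −0.45 and −0.51 at P5 against E16.5. Mitochondrial RNA took 8.28% and 8.16% of the CM UMIs at E16.5 and 16.3% to 18.0% afterwards, and without mitochondrial genes in the total these medians were −0.20, −0.16, −0.29 and −0.34. With all genes in the total, the median of the 10 genes was 0.10 and 0.24 at P1 against E16.5 and 0.08 and 0.13 at P5 against E16.5. From P1 to P5 the median gene was at −0.09 and −0.16, and the 10 genes at −0.18 and −0.21. Under median-of-ratios scaling, which sets the median gene near 0, the split of the 10 genes at P5 against E16.5 went from 5 higher and 5 lower to 7 higher and 3 lower in both ploidies, because Gpx1 and Prdx3 changed sign, and that of P1-2n against E16.5-2n from 6 and 4 to 8 and 2. Under the same scaling 3 of the 11 ratios past 2-fold fell short of it, those of Mt1 at P5 in 2n (−0.93 against P1 and −0.65 against E16.5) and that of Mt2 at P5 in 4n against E16.5 (−0.82), and Sod1, Cat and Prdx5 were past 2-fold higher at P5 than at E16.5 in both ploidies.

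**Figure D1:**
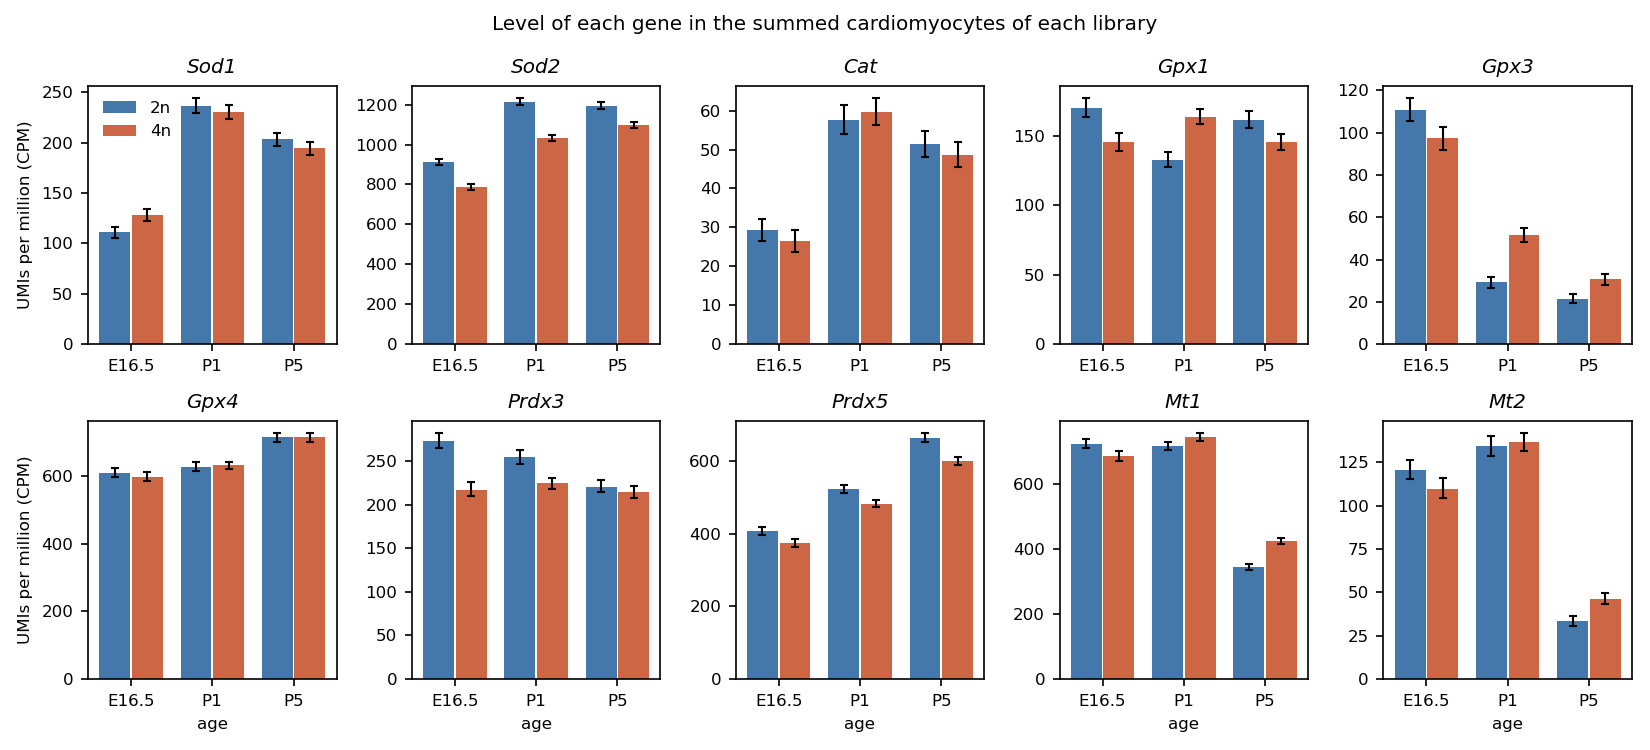
Level of each of the 10 genes in CPM (vertical axis, from 0) at each age (horizontal axis) in 2n (blue) and 4n (orange) CMs, 1 library per bar, with exact 95% counting intervals. Gpx3 dropped from 111 CPM in E16.5-2n to 21.5 CPM in P5-2n, Mt1 and Mt2 were low only in the P5 libraries, and Sod1 and Cat were lowest in both E16.5 libraries.

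**Figure D2:**
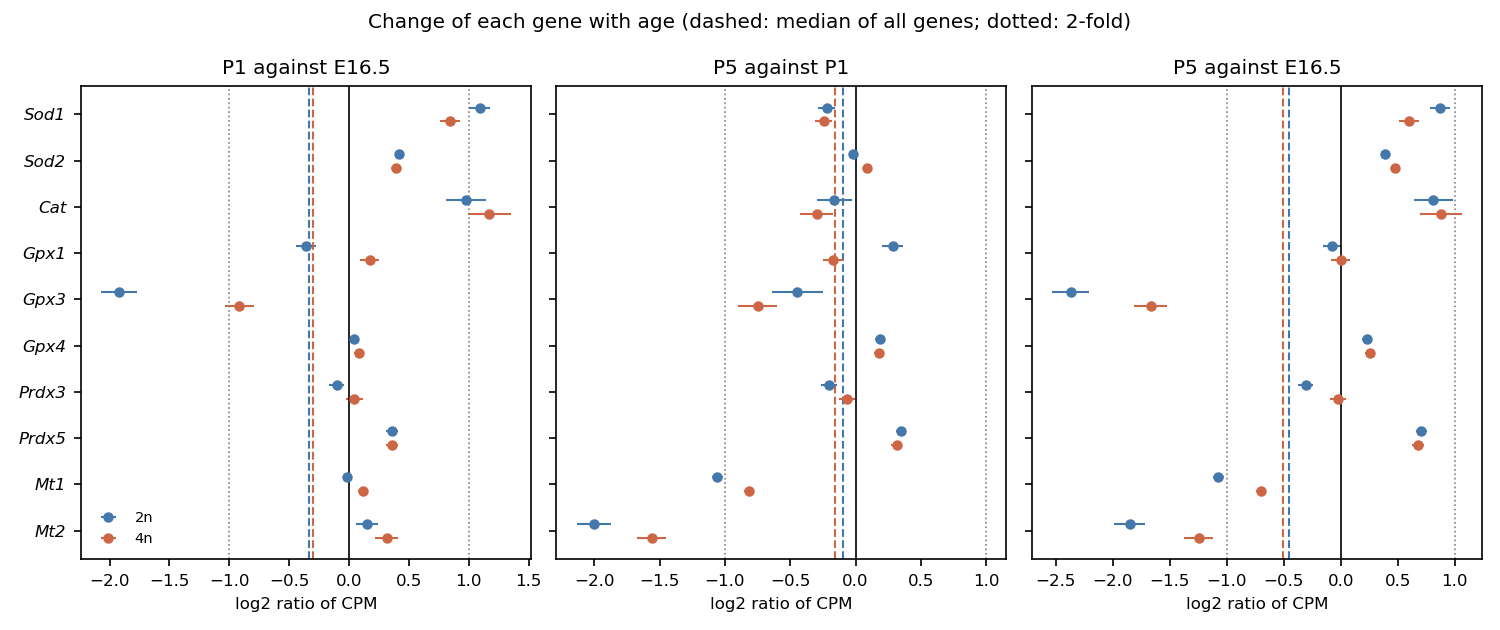
Log2 ratio of CPM between ages for each gene (horizontal axis, with exact 95% counting intervals) in 2n (blue) and 4n (orange) CMs, where dashed lines give the median of all genes with at least 100 UMIs and dotted lines a fold of 2. At P1 against E16.5 the Gpx3 points lie at −1.92 and −0.92, and at P5 against P1 the Mt2 points lie at −2.0 and −1.56.

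Of the superoxide dismutases, cytosolic Sod1 (GRCm38 chr16:90220754-90226329, plus strand) stood at 111 (2n) and 128 CPM (4n) before birth, at 236 and 230 CPM on P1 and at 203 and 194 CPM on P5. Both E16.5 libraries were lower than the other 4. The log2 ratio at P1 against E16.5 was 1.09 in 2n (95% counting interval 1.01 to 1.17) and 0.84 in 4n (0.76 to 0.93), higher than 98.3% and 96.1% of all genes in those comparisons. The share of CMs with a Sod1 UMI was 23.6%, 27.6%, 38.7%, 55.0%, 53.4% and 59.5% from E16.5-2n to P5-4n, and with every CM thinned to 1000 UMIs, which left out 906 shallower CMs, it was 10.8%, 12.0%, 21.7%, 21.8%, 18.6% and 18.0%. Within each ploidy the P5 share was thus above the P1 share before thinning and under it after thinning.

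Sod2 (chr17:13006846-13040063, plus strand), the manganese enzyme of the mitochondrial matrix, stood at 912 (2n) and 788 CPM (4n) before birth, at 1214 and 1031 CPM on P1 and at 1195 and 1096 CPM on P5. At each age the 2n library was the higher of the pair, with log2 ratios of 4n over 2n of −0.21, −0.24 and −0.12. Within each of the 6 libraries CMs with cycling markers held less Sod2 than the other CMs of the same library, at log2 ratios between −0.24 and −0.11 with the counting interval under 0 in 6 of 6. Sod2 was also lower in CMs with markers of other cell types, in 6 of 6 libraries, at −0.39 to −0.07. The ploidy difference thus went with more cycling-marker and more other-marker CMs in the 4n library at each age, shares that also depend on depth. Without the cycling-marker CMs the log2 ratios of 4n over 2n were −0.13, −0.22 and −0.07. Without the other-marker CMs they were −0.17, −0.19 and −0.14, and the part of either class in the difference was not tested. At P5 against P1 Sod2 differed by −0.02 in 2n and 0.09 in 4n, and the former turned positive under median-of-ratios scaling.

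Catalase, which breaks down hydrogen peroxide in peroxisomes without using glutathione or thioredoxin, was higher in both ploidies after birth. Cat (chr2:103453849-103485160, minus strand) stood at 29.3 (2n) and 26.5 CPM (4n) before birth, at 57.5 and 59.6 CPM on P1 and at 51.4 and 48.6 CPM on P5, so that the intervals of the 2 E16.5 libraries (23.8 to 32.2 CPM) did not touch those of the 4 others (45.5 CPM upward). The log2 ratio at P1 against E16.5 was 0.97 in 2n (0.81 to 1.14) and 1.17 in 4n (1.00 to 1.35). Thinned to 1000 UMIs, 2.73% (2n) and 2.66% (4n) of CMs held a Cat UMI before birth, 5.77% and 6.09% on P1, and 5.24% and 4.93% on P5. Its unthinned share was 7.05%, 6.84%, 12.1%, 20.7%, 18.1% and 20.7%.

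Of the glutathione peroxidases, Gpx4 (chr10:80047166-80056439, plus strand), which reduces lipid peroxides in membranes, had the narrowest range of the 10 genes. It stood at 610 (2n) and 597 CPM (4n) before birth, at 628 and 631 CPM on P1 and at 714 CPM in both ploidies on P5, and the log2 ratio at P5 against E16.5 was 0.23 in 2n (0.19 to 0.27) and 0.26 in 4n (0.22 to 0.30). The 4n over 2n ratio was within 0.03 of 0 on the log2 scale at each age, with counting intervals that held 0 in 3 of 3, and its small positive value at P1 (0.01) changed sign under median-of-ratios scaling.

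Gpx1 (chr9:108338903-108340343, plus strand), the main cytosolic glutathione peroxidase, stood at 170 (2n) and 146 CPM (4n) before birth, at 133 and 164 CPM on P1 and at 162 and 146 CPM on P5. On the CPM scale it moved in opposite directions in the 2 ploidies: from E16.5 to P1 the log2 ratio was −0.36 in 2n and 0.17 in 4n, and from P1 to P5 it was 0.28 in 2n and −0.17 in 4n, all 4 intervals off 0. The 4n over 2n ratio was therefore positive at P1 only (0.30, interval 0.23 to 0.38), against −0.23 at E16.5 and −0.15 at P5. Under median-of-ratios scaling the age ratios of −0.36 and −0.17 shrank to −0.06 and −0.05. The median gene on the CPM scale was at −0.34 from E16.5 to P1 in 2n. Without CMs with cycling markers the age ratio of 0.17 was 0.02. Gpx1 was higher in CMs with markers of other cell types in 4 of 6 libraries, with the interval above 0 in 3, and the 4n library of P1 held the most such CMs (38.1%). Without those CMs the log2 ratios of 4n over 2n were −0.32 at E16.5, 0.26 at P1 and −0.18 at P5, and their part was not tested.

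Gpx3 (GRCm38 chr11:54902453-54910377, plus strand) stood at 111 (2n) and 97.2 CPM (4n) before birth, at 29.2 and 51.6 CPM on P1 and at 21.5 and 30.7 CPM on P5. Each postnatal library was under both E16.5 libraries. Its log2 ratio at P1 against E16.5 was −1.92 in 2n (−2.07 to −1.77) and −0.92 in 4n (−1.04 to −0.80). At P5 against E16.5 it was −2.37 in 2n (−2.53 to −2.20), lower than all but 0.894% of genes, and −1.67 in 4n (−1.81 to −1.52). The highest library thus held 5.15-fold the CPM of the lowest, a wider range than in 97.9% of the genes counted at 100 UMIs or more in every library.

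The share of CMs with a Gpx3 UMI was 18.0% (2n) and 16.1% (4n) before birth, 5.42% and 14.7% on P1, and 6.82% and 12.7% on P5. Thinned to 1000 UMIs it was 8.89% and 7.37%, 2.86% and 4.66%, and 2.39% and 3.48%. Gpx3 was spread more unevenly over CMs than any other of the 10 genes in 4 of the 6 libraries. The variance over the mean of the thinned counts (the Fano factor, 1 for pure counting) was 1.41 and 1.54 at E16.5 and 1.16 to 1.34 later, while in the same E16.5-2n library Sod1, at the same CPM, had 1.02. A single thinned CM of E16.5-4n held up to 9 Gpx3 UMIs, where no CM of that library held more than 3 of Sod1.

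Summed over the CMs that held Gpx3, some other genes stood higher than in the other CMs. CMs with a Gpx3 UMI among 1000 (101 to 492 per library) were set against the other CMs of the same library, genes were ranked by the lower bound of their ratio, and genes among the top 10 in 3 or more of the 6 libraries included Myl7, Myl4, Myl1, Sln, Igfbp5 and Nppa. Myl7 and Myl4 are the myosin light chains of atrial muscle. Before birth, however, CMs without Gpx3 also held Myl4, at 2004 CPM in 2n and 1557 CPM in 4n. Sln (sarcolipin) inhibits the calcium pump of the atrial sarcoplasmic reticulum, and Nppa encodes atrial natriuretic peptide, which trabecular ventricular CMs also express before birth. These genes were picked after their values were seen, so their ratios are a description. The ratios compare sums over a class and do not mean that most CMs with Gpx3 held each gene. In P1-2n the 183 CMs with Gpx3 held 14 Sln UMIs in all, and in P5-4n the 123 CMs held 32.

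Myl7 ranked in the top 10 in 6 of 6 libraries. Before birth it stood at 1552 CPM in 2n-CMs with Gpx3 and 628 CPM in those without (log2 ratio 1.30), and at 1495 and 539 CPM in 4n-CMs (1.47). The levels on P1 were 778 and 99.8 CPM for 2n (2.96) and 547 and 113 CPM for 4n (2.28), and those on P5 were 2686 and 56.9 CPM for 2n (5.56) and 247 and 23.2 CPM for 4n (3.42). Sln differed by log2 ratios of 2.64 to 5.36, Myl4 by 0.86 to 4.77, Myl1 by 0.89 to 2.82 and Igfbp5 by 0.60 to 2.24, each with intervals above 0 in 6 of 6 libraries. Nppa was higher in CMs with Gpx3 in 5 of 6 libraries (0.88 to 2.05) and lower in P5-2n (−0.57). The median depth of CMs with Gpx3 was 2381, 2489, 1906, 3000, 3124 and 4309 UMIs from E16.5-2n to P5-4n, against 2262, 2173, 1965, 3204, 3780 and 4676 in those without, so they were not the deeper CMs after birth.

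Read the other way, CMs with at least 3 Myl7 UMIs among 1000 held more Gpx3 than the other CMs in every library. Myl7 had been picked by its ratio in these same CMs, so the direction adds no separate support and only the levels are described. Their Gpx3 level before birth was 316 CPM for 2n (360 CMs) and 307 CPM for 4n (225 CMs), that on P1 was 312 CPM for 2n (27 CMs) and 447 CPM for 4n (32 CMs), and that on P5 was 863 CPM for 2n (29 CMs) and 419 CPM for 4n (7 CMs, with only 8 Gpx3 UMIs). The remaining CMs stood at 96.3, 86.7, 27.4, 48.7, 17.4 and 30.2 CPM. The drop of Gpx3 with age was thus also in the CMs with fewer than 3 Myl7 UMIs among 1000, which can still hold Myl7. CMs with at least 3 made up 6.50% and 4.63% of CMs at E16.5 and 0.192% to 0.674% later. Their Gpx3 level at those later ages was 312 to 863 CPM. Of all Gpx3 UMIs they held 18.6%, 15.1%, 4.64%, 6.21%, 19.3% and 1.42%. A CM class cut from a count is a range and not a cell type, and whether left atrial tissue was in any dissection was not tested.

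**Figure D3:**
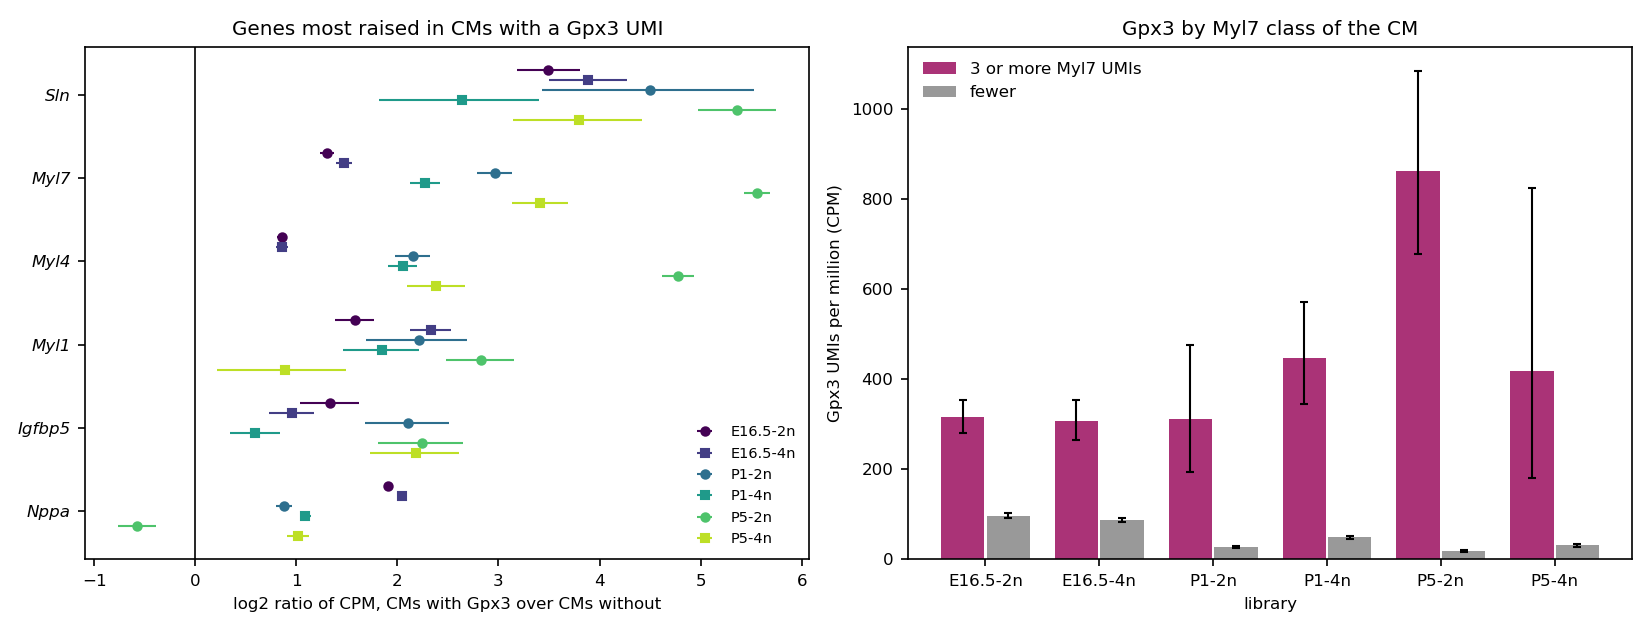
Left, log2 ratio of CPM of 6 genes between CMs with and without a Gpx3 UMI after thinning (horizontal axis, with exact 95% counting intervals), 1 point per library; right, Gpx3 in CPM (vertical axis, from 0) in CMs with 3 or more Myl7 UMIs after thinning (purple) and in the others (grey) of each library. Except for Nppa in P5-2n all points on the left lie above 0, and on the right the purple bars lie at 307 CPM or above in every library.

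Gpx3 also went with fibroblast markers after birth. In CMs with 2 or more markers of any other cell type its log2 ratio to the remaining CMs was −0.79 (2n) and −0.02 (4n) before birth, and then 0.83 and 0.41 on P1 and 0.56 and 0.55 on P5. With fibroblast markers alone it was −1.18, 0.03, 1.12, 0.62, 0.89 and 0.68. With endothelial markers alone it was 0.19 (2n) and −0.19 (4n) on P1 and 0.39 and 0.34 on P5, with intervals that all held 0, and with mural markers it was 0.01 in P1-4n and 0.94 in P5-4n. At P1 the 4n library held more Gpx3 than the 2n library (log2 ratio 0.82, interval 0.66 to 0.98). Without the CMs with markers of other cell types Gpx3 stood at 44.6 CPM (4n) and 28.1 CPM (2n), a log2 ratio of 0.67. At P5 the ratio was 0.51 with all CMs, 0.47 without those and 0.31 without CMs with cycling markers. At E16.5 it was −0.19, where cycling-marker CMs held less Gpx3 than the others (77.1 against 132 CPM in E16.5-4n), and among CMs without cycling markers it turned to 0.17.

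Of the peroxiredoxins, Prdx5 (chr19:6906697-6910106, minus strand), which is found in mitochondria, peroxisomes and the cytosol, was higher at each later age in both ploidies. Its level was 407 (2n) and 375 CPM (4n) before birth, 523 and 482 CPM on P1 and 665 and 599.8 CPM on P5. The log2 ratio at P5 against E16.5 was 0.71 in 2n (0.66 to 0.75) and 0.68 in 4n (0.63 to 0.73), higher than 94.9% and 95.3% of genes. The 2n library was the higher of the pair at each age, with log2 ratios of 4n over 2n of −0.12, −0.12 and −0.15, and Prdx5 was lower in CMs with cycling markers in 6 of 6 libraries (−0.22 to −0.09, 5 of 6 intervals under 0). Without those CMs the log2 ratios of 4n over 2n were −0.07, −0.10 and −0.14, and their part in the ploidy difference was not tested.

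Prdx3 (chr19:60864051-60874556, minus strand), the peroxiredoxin of the mitochondrial matrix, stood at 273 (2n) and 217 CPM (4n) before birth, at 254 and 224 CPM on P1 and at 221 and 214 CPM on P5. The log2 ratio of 4n over 2n was −0.33 at E16.5 (−0.40 to −0.26), −0.18 at P1 (−0.24 to −0.12) and −0.04 at P5, the last with an interval that held 0. Prdx3 was lower in CMs with markers of other cell types, with the interval under 0 in 6 libraries. In CMs with cycling markers the interval was under 0 in 4. The ratios of 4n over 2n were −0.30, −0.14 and −0.04 without the other-marker CMs. They were −0.28, −0.16 and −0.03 without the cycling-marker CMs, and the part of either class was not tested. The Prdx3 ratios at P5 against E16.5, −0.31 in 2n and −0.02 in 4n, turned positive under median-of-ratios scaling, as did that of P1-2n against E16.5-2n (−0.10) and that of P5-4n against P1-4n (−0.07).

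The metallothionein genes lie side by side on one strand of chromosome 8, Mt2 at chr8:94172664-94173568 and Mt1 at chr8:94179082-94180327 (GRCm38, plus strand), with 5513 bases between them. Metal response elements, the sites of the zinc-sensing factor MTF1, are known from their promoters, so the 300 bases around each start (250 before and 50 after, RefSeq, GRCm38.p6) are shown with the letters of the core (TGCACNC or TGCGCNC, on either strand) in capitals, chr8:94178839-94179138 for Mt1 and chr8:94172368-94172667 for Mt2, both plus strand.
Mt1: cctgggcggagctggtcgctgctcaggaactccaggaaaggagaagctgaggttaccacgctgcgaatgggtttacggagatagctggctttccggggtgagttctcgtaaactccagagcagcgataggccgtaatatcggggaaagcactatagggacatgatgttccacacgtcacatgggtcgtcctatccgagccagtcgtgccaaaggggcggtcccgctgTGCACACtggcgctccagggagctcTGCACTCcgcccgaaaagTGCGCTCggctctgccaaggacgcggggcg
Mt2: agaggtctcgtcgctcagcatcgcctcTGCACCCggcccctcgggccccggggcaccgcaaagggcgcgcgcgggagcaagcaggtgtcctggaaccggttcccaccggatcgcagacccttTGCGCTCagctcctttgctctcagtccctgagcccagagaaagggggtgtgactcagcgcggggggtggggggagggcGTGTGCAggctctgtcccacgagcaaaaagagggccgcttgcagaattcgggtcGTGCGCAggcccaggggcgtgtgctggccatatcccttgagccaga
Mt1 held 3 such matches and Mt2 held 4, where 25.9% of 32544 windows of the same length held at least 1, 1.99% at least 3 and 0.522% at least 4. Counted from the RefSeq start, 1 match of Mt1 lay before it and 2 after it, and 3 of Mt2 lay before it and 1 after it. The gene start of Mt2 given above (94172664) lies near the end of its window (94172667). These sides thus hold for the starts used only, which were not set against measured starts. The antioxidant response core TGACNNNGC, on either strand, matched once in the Mt2 window, clear of the capitals, once in that of Sod1 and in none of the other 8 genes, and 12.4% of all windows held it. None of the 8 enzyme genes had a metal response core in its windows. A match is a run of letters and not a bound site.

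Mt1 stood at 723 (2n) and 685 CPM (4n) before birth, at 716 and 743 CPM on P1 and at 344 and 423 CPM on P5. Mt2 stood at 121 and 109.9 CPM before birth, at 134 and 137 CPM on P1 and at 33.5 and 46.3 CPM on P5. Both P5 libraries were thus well under the 4 earlier ones for both genes. At P5 against P1 the log2 ratio of Mt1 was −1.06 in 2n (−1.10 to −1.01) and −0.81 in 4n (−0.85 to −0.77), and that of Mt2 was −2.0 in 2n (−2.14 to −1.87) and −1.56 in 4n (−1.67 to −1.45), lower than all but 0.0867% of genes in 2n and 1.78% in 4n. The Mt1 value of 2n-CMs was short of 2-fold under median-of-ratios scaling (−0.93) and with CMs thinned to 2000 UMIs.

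From E16.5 to P1 the same genes differed less than from P1 to P5. On the CPM scale Mt1 had log2 ratios of −0.01 in 2n and 0.12 in 4n, and Mt2 of 0.15 and 0.31. The median gene was at −0.34 and −0.30 in these comparisons. Under median-of-ratios scaling the ratios were 0.28 and 0.42 for Mt1 and 0.45 and 0.62 for Mt2, so their size depended on the scaling. The ratio of Mt1 to Mt2 UMIs before birth was 5.99 for 2n (5.69 to 6.30) and 6.24 for 4n (5.90 to 6.60), that on P1 was 5.34 for 2n (5.10 to 5.59) and 5.44 for 4n (5.22 to 5.67), and that on P5 was 10.3 for 2n (9.45 to 11.2) and 9.13 for 4n (8.50 to 9.81). This ratio does not depend on how libraries were scaled, and at P5 it was above all 4 earlier values in both ploidies, so the levels of Mt1 and Mt2 were reduced unequally.

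The share of CMs with a UMI of Mt1 was 72.8% (2n) and 72.0% (4n) before birth, 69.0% and 83.2% on P1 and 64.7% and 75.5% on P5, and thinned to 1000 UMIs it was 47.3%, 46.4%, 48.7%, 50.1%, 27.1% and 31.6%. For Mt2 the thinned shares were 11.4%, 9.80%, 11.9%, 12.6%, 3.23% and 4.90%, and the unthinned 22.8%, 22.4%, 22.4%, 35.5%, 11.5% and 18.1%. At E16.5 and P1 thinned CMs with Mt1 held Mt2 somewhat more often than those without Mt1, though most held none. The shares with Mt2 were 12.3% to 15.3% among CMs with Mt1 and 7.61% to 9.84% among CMs without it. Pearson's r over thinned CMs was 0.13 (2n) and 0.10 (4n) before birth, 0.18 and 0.13 on P1 and 0.03 and 0.05 on P5. It was described over 3654 to 6640 CMs that share a library. The other 44 pairs of the 10 genes lay between −0.04 and 0.06. The P5 values of Mt1 with Mt2 lay within that range, and in P5-4n Gpx4 with Prdx5 was higher (0.058). The Fano factor of Mt1 was 1.18 to 1.24 in the E16.5 and P1 libraries and 1.10 and 1.12 at P5. CMs with at least 3 UMIs of Mt1 and Mt2 among 1000 had no gene in common among their top 10 in 3 or more libraries. At P5 these classes held only 41 (2n) and 58 CMs (4n). In single libraries some genes did stand higher. Nppa, seen before it was picked, ranked first in P5-2n, at 4684 CPM in the class and 939 CPM in the rest. In P5-4n 67.2% of the class held cycling markers, against 43.7% of the rest.

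Within the P5 libraries Mt1 went with cycling markers in both ploidies, and Mt2 did so in 4n. In P5-4n, CMs with at least 3 UMIs of cycling markers (1610 CMs) held 463 CPM of Mt1 and 55.3 of Mt2, and the other 2044 CMs held 385 and 38, log2 ratios of 0.26 (0.20 to 0.33) and 0.54 (0.34 to 0.74). In P5-2n the ratios were 0.17 (0.08 to 0.26) for Mt1 and 0.01 (−0.31 to 0.32) for Mt2. In the 4 E16.5 and P1 libraries both genes were lower in such CMs, Mt1 by −0.21 to −0.03 and Mt2 by −0.33 to −0.15. The intervals were under 0 in 2 libraries for Mt1 and in 3 for Mt2. With a cut of 2 UMIs of cycling markers they were under 0 in 1 library for each gene. At P5 the 4n library held more of both genes than the 2n library, with log2 ratios of 0.30 for Mt1 (0.25 to 0.35) and 0.47 for Mt2 (0.32 to 0.62), and among CMs without cycling markers these were 0.19 and 0.18.

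**Figure D4:**
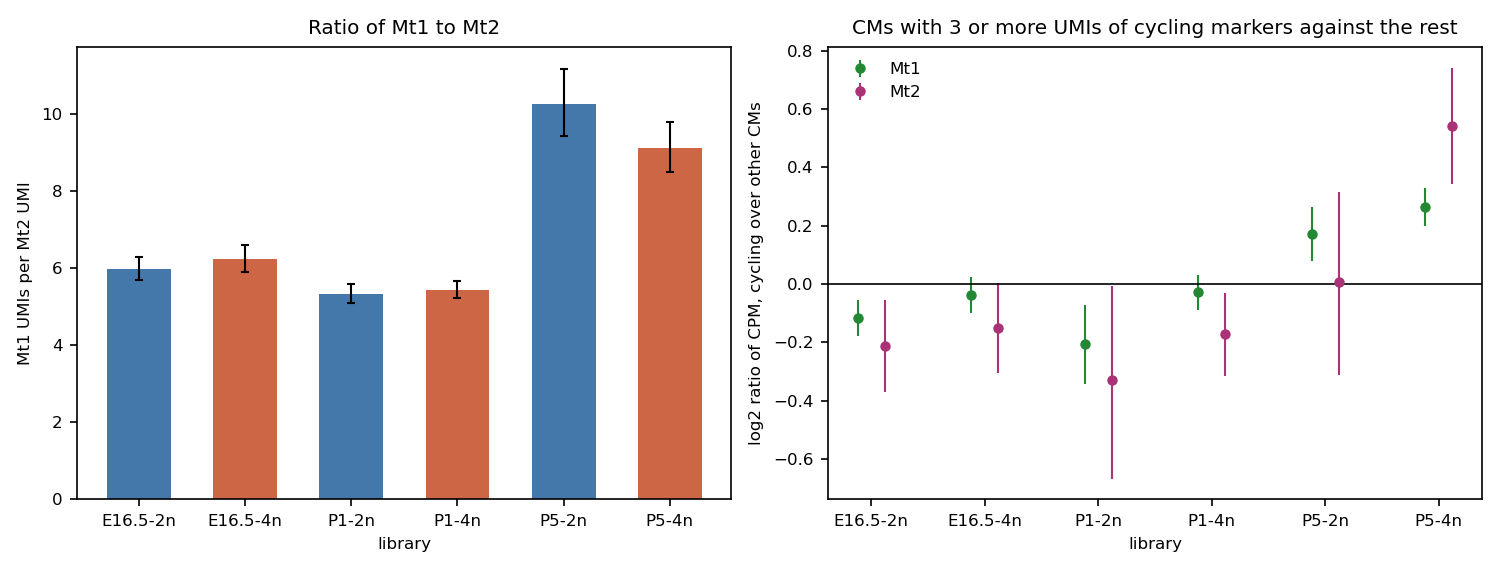
Left, Mt1 UMIs per Mt2 UMI (vertical axis, from 0) in the CMs of each library, 2n in blue and 4n in orange; right, log2 ratio of CPM of Mt1 (green) and Mt2 (purple) between CMs with at least 3 UMIs of cycling markers and the other CMs of the same library, all with exact 95% counting intervals. The ratio is 5.34 to 6.24 in the 4 earlier libraries and 10.3 and 9.13 at P5, and the points on the right lie under 0 before P5 and reach 0.26 and 0.54 in P5-4n.

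Between ploidies 0 of the 10 genes passed a fold of 2 at E16.5, P1 or P5, where 4.66%, 5.23% and 2.28% of all genes did. Of these genes nearly all at E16.5 and P1, and most at P5, were higher in 4n: 4.64% against 0.0208% lower at E16.5, 5.23% against 0.00% at P1, and 1.87% against 0.406% at P5. At E16.5, 9 of 10 were lower in 4n, with a median log2 ratio of −0.14 against 0.03 for all genes, and Sod1 alone was higher (0.21). Of these 9, 7 had a counting interval under 0, and 54.6% of all genes were higher in 4n. At P1, 6 were higher and 4 lower (median 0.02 against 0.05), which became 4 and 6 under median-of-ratios scaling as Gpx4 and Mt2 changed sign. Intervals there were above 0 for 3 genes and under 0 for 3, and 58.6% of all genes were higher. At P5, 3 were higher, Gpx3, Mt1 and Mt2, and 7 lower (median −0.05 against 0.02). The intervals were above 0 for those 3 but under 0 for only 3 of the 7, and 53.6% of all genes were higher. The largest ratios were those of Gpx3 at P1 (0.82) and P5 (0.51) and of Mt2 at P5 (0.47).

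**Figure D5:**
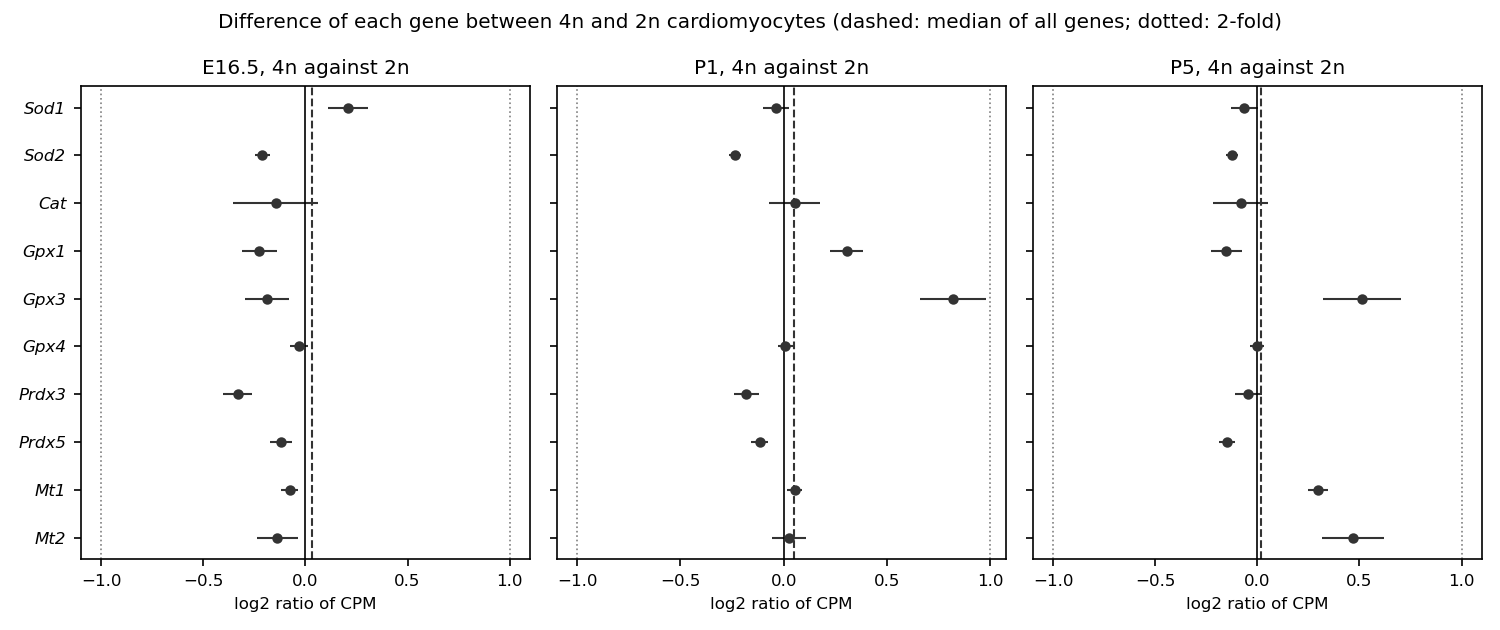
Log2 ratio of CPM between the 4n and the 2n library of an age for each gene (horizontal axis, with exact 95% counting intervals), where dashed lines give the median of all genes and dotted lines a fold of 2. No gene reaches a dotted line, 9 of 10 lie under 0 at E16.5 (7 with the interval under 0), and Gpx3, Mt1 and Mt2 lie above 0 at P5.

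Other genes of the same pathways were followed as lists, counting those past 2-fold, which over all genes were 1.98% (2n) and 2.88% (4n) higher and 12.1% and 11.6% lower at P1 against E16.5, and 3.02% and 2.40% higher and 1.98% and 5.85% lower at P5 against P1. Of 10 thioredoxin and peroxiredoxin genes, 9 had 100 UMIs at P1 against E16.5, and 1 was higher and 1 lower in each ploidy: Txnip, which binds and inhibits thioredoxin, went from 222 to 585 CPM in 2n and from 197 to 570 CPM in 4n, and Prdx4, the peroxiredoxin of the endoplasmic reticulum, from 154 to 73.3 and from 196 to 85.9 CPM. From P1 to P5, 0 of 10 passed 2-fold in either ploidy, with Txnip at −0.99 in 2n and −0.98 in 4n. Of 16 glutathione genes, 1 was lower at P1 in 2n, glutathione reductase (Gsr, log2 ratio −1.27), and 0 in 4n. From P1 to P5 2 of 16 were lower in each ploidy, the transferases Gstm1 (−1.10 and −1.42) and Mgst1 (−1.22 and −1.29).

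Of 12 genes of the NRF2, iron and NADPH list 9 had enough UMIs. From P1 to P5, 1 was lower in 2n and 2 in 4n, with the ferritin light chain Ftl1 in both at −1.23 and −1.27, from 664 to 283 CPM in 2n and from 732 to 303 CPM in 4n. At P5 against E16.5 the gene of the factor NRF2 itself, Nfe2l2, was at −1.29 and −1.07. Its known target Nqo1, a quinone reductase, was at 0.98, short of 2-fold, and 1.10. In that comparison 2 of the 9 were past 2-fold lower and 0 higher in 2n, and 3 lower and 1 higher in 4n. Of all genes 16.8% were lower and 3.03% higher in 2n, and 21.0% and 2.48% in 4n. The list medians of −0.52 and −0.41 lay near those of all genes, −0.45 and −0.51, so these 2 genes do not stand for the list. Of 12 genes of metal handling besides Mt1 and Mt2, 11 had enough UMIs and 0 passed 2-fold from P1 to P5 in either ploidy. Before birth the zinc importer Slc39a1 stood at 30.3 CPM in 2n-CMs and 89.3 CPM in 4n-CMs, a log2 ratio of 1.56.

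Glucocorticoids are known to induce Mt1 and Mt2, and glucocorticoid targets and immediate early genes also held members past 2-fold lower between P1 and P5. From P1 to P5, 1 of 6 glucocorticoid targets in 2n (Per1) and 3 of 6 in 4n (Per1, Sgk1 and Errfi1) were past 2-fold lower, where 1.98% and 5.85% of all genes were, with a list median of −0.38 and −1.09. Of 9 immediate early and heat shock genes 4 in 2n and 7 in 4n were past 2-fold lower and all 9 had a ratio under 0 in both, with a list median of −0.97 and −1.57 against −0.09 and −0.16 over all genes. From E16.5 to P1 the list medians were −0.55 (2n) and −0.54 (4n) for glucocorticoid targets and −0.48 and −0.19 for immediate early and heat shock genes. Those over all genes were −0.34 and −0.30, while Mt1 and Mt2 lay between −0.01 and 0.31 over that interval. Immediate early genes respond to handling of tissue as well as to signals in it. The part of these genes and of glucocorticoids in the metallothionein values was not tested.

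The genes whose log2 level over the 6 libraries, centred per gene, was nearest to each of the 10 were found among 6786 others by root mean square distance. They were Pde1c for Sod1 (0.07 log2 units), Endog for Sod2 (0.03), Lpin1 for Cat (0.06), Cul7 for Gpx1 (0.03), Plec for Gpx4 (0.04), Abcf3 for Prdx3 (0.02), Cisd1 for Prdx5 (0.04) and Mxi1 for Mt1 (0.04). Gpx3 and Mt2 had no gene as near, the nearest being Zdhhc20 (0.19) and Zfos1 (0.18). The distances rest on 6 libraries and describe those only.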

How the data were processed

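The authors sequenced 3′ cDNA of sorted, fixed CMs with the 10x Genomics system and made the deposited counts with Cell Ranger, which aligned reads with STAR to GRCm38 (annotation GRCm38.84) and counted UMIs per gene and cell barcode. The Cell Ranger version is not given in the sources used here. The matrices hold whole-number UMI counts of cell-called barcodes, and the authors then used Seurat. No doublet removal is stated for the deposited matrices and none was done here.

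From these counts, CMs were taken as cells with at least 1 UMI of each of Tnni3, Tnnt2, Tnnc1 and Actc1, counts were summed per library and given as CPM, and log2 ratios were given with exact 95% binomial intervals. Since UMIs are counted at the 3′ end and not per length, levels were compared between libraries and not between genes. A gene was called past 2-fold if its ratio exceeded a fold of 2 and it had at least 100 UMIs over both libraries. With 1 library per group no test was made and p-values are not given. CMs with at least 2 detected markers of other cell types, and with at least 3 UMIs of cycling markers, were taken as classes within a library. For shares of CMs, Fano factors and companion genes, each CM was thinned at random to 1000 UMIs, in 1 draw for shares and Fano factors and in a separate draw for companion genes and CMs with Myl7, and the ratios between companion classes used all UMIs. The named genes are the 10 taken by name, those past 2-fold in the 6 lists (66 of 67 symbols found) and the nearest genes by distance; Myl7, Sln and the other companions of Gpx3 were chosen after their values were seen, and 1 further companion is not reported here. Both the 10 genes and the lists were chosen with earlier results of these data known.

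Promoter windows came from RefSeq (GRCm38.p6) and matched 10 of 10 genes, and gene positions from GENCODE M21 (GRCm38). The ratios and their intervals were checked on counts simulated with counting error only, for P1-2n against E16.5-2n (7914 genes, 200 changed). The sign was recovered for 100% of the changed genes and 95.9% of intervals held the true ratio. The simulation held no further spread between cells or libraries, so it says nothing of such spread. A deposited table of the authors' own comparison (p-values, natural log fold changes and shares of cells) and a list of background symbols were not used. Python 3.11.15, NumPy 2.4.6, SciPy 1.17.1 and pandas 2.3.3 were used.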

Additional observations from a re-analysis of the deposited data

Results flagged for a closer look

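For 4 genes the 4n over 2n log2 ratio had opposite signs at 2 ages, with counting intervals off 0 at both. Each age and ploidy was 1 library, so none of these differences was tested. Gpx1 was lower in 4n at E16.5 and higher at P1, a difference of 0.53 between the log2 ratios, and lower again at P5, a difference of −0.46 from P1. Gpx3 was lower in 4n at E16.5 and higher at P1 and P5, by differences of 1.00 and 0.70. Its E16.5 ratio was −0.19 with all CMs and 0.17 without CMs with cycling markers, so among CMs without these markers the sign did not change. Mt1 was lower in 4n at E16.5 and higher at P1 (difference 0.13) and P5 (0.38). Mt2 was lower in 4n at E16.5 and higher at P5, a difference of 0.61. The E16.5 ratios of Mt1 and Mt2 were −0.08 and −0.14 with all CMs. Without CMs with markers of other cell types they were −0.01 and −0.08. In such CMs Mt1 was lower with the interval under 0 in 5 libraries, and Mt2 in 3. The part of these CMs in the sign changes was not tested.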

How the results depend on the processing

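The counts are of single libraries, so no library can be left out. Differences between animals and sorts cannot be told apart from age, nor those between droplet runs from age or ploidy. The paper describes sorts of 1 litter each, gated for DNA content, so both ploidies of an age shared litters and sorts. No analysis paired by litter was possible because the sorts were pooled and each comparison set 1 library against 1 other. A fit of ploidy across the 3 ages, with age as the pair, was not run. Depth limited Cat (346 UMIs at the least) and the classes of CMs with at least 3 Myl7 UMIs after birth (8 to 74 Gpx3 UMIs). Each of the 90 log2 ratios of the 10 genes was recomputed under 11 alternatives, and 76 kept their direction in all of them. All 11 ratios past 2-fold kept theirs, and 8 stayed past 2-fold throughout. Of 108 alternative counts of genes past the fold, 14 moved by over 1.5 times. For P1-4n against E16.5-4n the count of 1 became 2 under median-of-ratios scaling, without the 50 most abundant genes in the total, without CMs with markers of other cell types, without CMs with cycling markers and with CMs thinned to 2000 UMIs, and 3 with a fold of 1.5. For P5-2n against P1-2n the count of 2 became 1 under median-of-ratios scaling and with CMs thinned to 2000 UMIs. Median-of-ratios scaling also gave 5 in place of 3 for P5-2n against E16.5-2n and 4 in place of 2 for P5-4n against E16.5-4n, and this scaling is centred on the median gene by construction. A fold of 1.5 gave 3 in place of 1 for P5-4n against P1-4n, 6 in place of 3 and 6 in place of 2 for P5 against E16.5 (2n and 4n), and 1 in place of 0 for P1-4n against P1-2n (Gpx3). Only Gpx3 in P5-4n against E16.5-4n moved by over 1.5 times among the single ratios past 2-fold, from −1.67 to −2.27 without CMs with cycling markers, and the cause was not tested.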

Other observations

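The 423 cells that lacked a UMI of at least 1 of the 4 CM genes were in no comparison. Summed per library, they held Gpx1 at 444, 278, 258, 165.5, 162 and 155 CPM from E16.5-2n to P5-4n, where the CMs held 133 to 170 CPM, and Gpx3 at 122, 174, 68.2, 207, 235 and 155 CPM, where the CMs held 21.5 to 111 CPM. These levels rest on 5 to 40 UMIs of Gpx1 and 5 to 25 UMIs of Gpx3 per library and are given as values.

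Summed over the 8 enzymes, the CMs held 2624 (2n) and 2375 CPM (4n) before birth, 3075 and 2874 CPM on P1 and 3233 and 3043 CPM on P5. The 2 metallothioneins summed to 844 and 795 CPM, 851 and 879.7 CPM, and 377 and 469 CPM.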
